A study of Mus musculus with 15 samples.

Results

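The fatty acid main effect is the difference that fatty acid loading made to the expression of each gene in mouse macrophages when cells with and without bacterial lipopolysaccharide (LPS) shared 1 coefficient. All 15 arrays of the series entered it, 8 from loaded cells and 7 from unloaded cells. The additive model had terms for fatty acid, LPS and experiment, and 12984 genes were tested. Such a term is large relative to its error where a gene moved alike in both LPS conditions. In the balance of these arrays it was a weighted mean of the effect with LPS (55%) and the effect without it (45%).

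Peritoneal macrophages were used, elicited into the abdomen by thioglycollate (an irritant broth), harvested 4 or 5 days after injection and cultured in 0.5% serum with 5.5 mM glucose. FA cells (4 arrays) were loaded with fatty acid and given vehicle, and Unstim cells (3 arrays) received vehicle alone. FA+LPS cells (4 arrays) were loaded and then given LPS at 10 ng/ml for 24 h, and LPS cells (4 arrays) received the same LPS without loading. The arrays came from 4 experiments described as independent, and the Unstim array of experiment 2 was not analysed here. All groups share the thioglycollate elicitation and the low serum. Not given in the sources used here were the fatty acid, its dose and loading time, and the strain, sex and age of the mice.

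Fatty acids that enter a macrophage are activated to acyl-CoA and then burnt in mitochondria or stored as triglyceride in lipid droplets. They also bind the peroxisome proliferator-activated receptors (PPARs), nuclear receptors that switch on genes of fatty acid uptake, droplet coating and oxidation. LPS acts through Toll-like receptor 4 and turns on cytokine and interferon programmes, and it is known to shift macrophages towards glycolysis and lipid storage.

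Of 13 macrophage markers 11 were measured, and 9 to 11 of them were above background on every array. The 95th percentile of the log2 signal was 7.77 on the array of FA experiment 1, against 8.53 to 9.57 on the others, and 16756 probes were above background there, against 18945 to 19973. The arrays lay on 3 slides. Experiment 1 filled most of slide 1 together with the FA array of experiment 4, and slide 2 held experiment 2 with the LPS and FA+LPS arrays of experiment 4. Slide 3 held experiment 3 with the Unstim array of experiment 4. Arrays of a group correlated at 0.972 to 0.993 and none were copies.

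Promoter windows of 4 genes that the results turn on are shown because PPARs bind DNA at the hexamer AGGTCA and hypoxia-inducible factors at the core ACGTG. Each window holds the 250 bases before and the 50 bases after a transcription start in RefSeq (build GRCm38.p6), written along the gene's own strand. Capitals mark matches to either motif on either strand, and where 2 matches overlap the capitals run on. The Hilpda window is chr6:29272376-29272675 on the plus strand, Plin2 chr4:86670010-86670309 on the minus strand, Cd36 chr5:17835847-17836146 on the minus strand and Slc25a20 chr9:108661886-108662185 on the plus strand.
Hilpda: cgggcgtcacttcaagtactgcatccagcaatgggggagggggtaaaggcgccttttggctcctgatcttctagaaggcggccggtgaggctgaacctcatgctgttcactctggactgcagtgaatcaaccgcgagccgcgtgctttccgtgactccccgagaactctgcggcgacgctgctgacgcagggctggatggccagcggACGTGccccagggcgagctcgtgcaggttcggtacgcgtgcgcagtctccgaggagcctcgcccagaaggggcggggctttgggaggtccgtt
Plin2: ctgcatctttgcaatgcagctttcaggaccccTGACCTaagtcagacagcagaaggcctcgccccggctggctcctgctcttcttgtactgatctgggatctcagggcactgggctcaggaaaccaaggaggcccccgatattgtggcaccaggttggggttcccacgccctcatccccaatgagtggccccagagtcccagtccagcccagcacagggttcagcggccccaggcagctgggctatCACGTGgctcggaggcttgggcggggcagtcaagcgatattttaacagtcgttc
Cd36: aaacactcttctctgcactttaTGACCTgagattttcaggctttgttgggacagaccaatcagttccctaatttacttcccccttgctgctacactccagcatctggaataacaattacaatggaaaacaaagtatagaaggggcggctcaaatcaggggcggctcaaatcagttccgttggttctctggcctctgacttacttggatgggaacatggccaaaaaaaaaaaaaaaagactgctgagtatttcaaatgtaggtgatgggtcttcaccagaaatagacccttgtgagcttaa
Slc25a20: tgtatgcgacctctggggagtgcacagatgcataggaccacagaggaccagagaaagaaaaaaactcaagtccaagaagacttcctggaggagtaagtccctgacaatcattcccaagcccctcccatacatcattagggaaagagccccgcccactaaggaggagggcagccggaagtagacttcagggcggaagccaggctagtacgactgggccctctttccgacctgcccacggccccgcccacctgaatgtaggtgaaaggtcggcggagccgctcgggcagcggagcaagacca

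The Cd36 and Plin2 windows each held 1 AGGTCA, read on the opposite strand as TGACCT, at positions -228 and -218 from the start. The Hilpda window held 1 ACGTG at -43, the Plin2 window held the palindrome that matches ACGTG on both strands at -4 and -3, and the Slc25a20 window held neither motif. Plin2 was not among the called genes. The windows of the called genes Etfb, Rims3, Gadd45a, Acss1 and Slc30a1, not shown, held neither motif. AGGTCA was in 16.3% of all 32851 promoter windows, in 13.1% of the 13247 windows of tested genes and in 7 of 26 windows of the PPAR-responsive list that follows. It was in 5 of 26 windows of the fatty acid oxidation list and in 3 of 12 windows of called genes. Those 3 belonged to Cd36 and to Unc119, which had more than 1 of them. Counted by gene, AGGTCA was in 2 of 9 called genes and in 1624 of 10495 tested genes. ACGTG was in 19.6% of all windows, in 24.0% of those of tested genes and in 1 of 12 windows of called genes. It was in 4 of 26 windows of the PPAR-responsive list and in 1 of 26 of the oxidation list. The promoter table also holds a second Hilpda window, chr6:29272238-29272537, with neither motif. The tandem form AGGTCANAGGTCA was in 0.0396% of all windows and in none of the 26 of either list. These counts describe letters in these windows and do not show binding.

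At an adjusted p below 0.05 in limma, 11 of 12984 genes (0.0847%) were called in loaded against unloaded cells, 6 higher (0.0462%) and 5 lower (0.0385%). Of the 6 genes that rose, 4 belong to the lists of fatty acid handling described further on. These lists were chosen with earlier results of these data known, so the membership is a description. The 6 were the droplet protein gene Hilpda, the fatty acid receptor gene Cd36, the mitochondrial genes Slc25a20 and Etfb, and Unc119 and Rims3. The genes that fell were Gadd45a, Vwf, Slc30a1, Acss1 and Cxcl16, none of which is in a pathway list used here. Folds among the called genes lay between 1.37 and 2.34 upward and between 1.26 and 1.60 downward. All 11 kept 1 sign in each of the 7 within-experiment differences, which are FA minus Unstim in experiments 1, 3 and 4 and FA+LPS minus LPS in experiments 1 to 4. Over all genes, 2.64% were higher in all 7 and 2.09% were lower in all 7. The same arrays give the test and these signs, so the agreement is a description.

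At an unadjusted p below 0.05, 820 genes were higher (6.32%) and 526 lower (4.05%). The calls depended on the setting. No gene passed without experiment as a term (smallest adjusted p 0.0674 in limma, with 573 higher and 388 lower at an unadjusted p below 0.05), and none without experiment 2 (0.0535, with 664 and 457). Another normalization between arrays, cyclic loess, called 6 genes higher and 4 lower in place of quantile normalization, with 10 of the 11 genes still called. None passed when arrays were scaled to 1 median instead, where 105 genes were higher and 236 lower at an unadjusted p below 0.05. Leaving out FA+LPS 3, FA+LPS 4 or LPS 2 (group and experiment number) also left 0 calls, while 43, 45 and 65 genes were called without Unstim 4, Unstim 1 and FA 2. In each of these fits all 11 genes kept their sign.

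Hilpda, whose protein sits on lipid droplets and inhibits the triglyceride lipase encoded by Pnpla2, had the largest coefficient among called genes. Its log2 signal (probe ILMN_2926198) was 10.12, 10.20, 11.61 and 11.12 in FA cells, against 9.79, 9.64 and 9.66 in Unstim cells. With LPS it was 10.87, 11.68, 11.59 and 11.80 in FA+LPS cells, against 9.85, 9.92, 10.25 and 10.71 in LPS cells. No loaded array overlapped the unloaded arrays of its LPS condition, and FA 1 and FA 2 were the lowest of the loaded arrays. The coefficient was 1.23 ± 0.17 (SE) on the log2 scale, 2.34-fold, with a 95% interval of 0.86 to 1.60 and an adjusted p of 0.0278 in limma. The effect was 1.30 with LPS and 1.13 without it, and a second probe gave a coefficient of 1.23. Second probes of a gene come from a fit of each probe on its own, with p-values adjusted over all 20279 probes. In these bulk samples, fewer cells of a type and less RNA per cell cannot be told apart.

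Cd36 encodes a scavenger receptor that carries long-chain fatty acids into the cell. Its log2 signal (ILMN_1232470) was 7.57, 7.40, 7.95 and 7.67 in FA cells, against 7.07, 7.19 and 7.26 in Unstim cells. In LPS-treated cells the signal was 6.56, 6.58, 6.54 and 6.74 in FA+LPS cells, against 6.03, 6.21, 6.08 and 6.33 in LPS cells. Neither condition showed an overlap, and every LPS-treated array, loaded or not, lay below every array without LPS. The coefficient was 0.47 ± 0.07 (SE), 1.38-fold (adjusted p 0.0278 in limma), and the effect was 0.44 with LPS and 0.49 without it.

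Slc25a20 is the carnitine-acylcarnitine translocase, which carries acylcarnitine across the inner mitochondrial membrane for oxidation. Its log2 signal (ILMN_3138499) was 8.64, 8.79, 9.29 and 9.05 in FA cells, against 8.57, 8.40 and 8.45 in Unstim cells. Under LPS it stood at 8.87, 9.27, 9.25 and 9.09 in FA+LPS cells, against 8.23, 8.26, 8.11 and 8.32 in LPS cells. Loaded arrays lay above unloaded ones throughout, but FA 1 lay only 0.07 above Unstim 1, the smallest of the 7 within-experiment differences of this gene. The coefficient was 0.70 ± 0.10 (SE), 1.62-fold (adjusted p 0.0278 in limma). A second, dimmer probe gave 0.37 and was not called (adjusted p 0.269).

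Etfb encodes the beta subunit of the electron transfer flavoprotein, which takes electrons from the acyl-CoA dehydrogenases of beta-oxidation. Its log2 signal (ILMN_3104414) was 10.48, 10.63, 10.98 and 10.83 in FA cells, against 10.01, 10.20 and 10.20 in Unstim cells. In the cells given LPS it was 9.86, 10.49, 10.39 and 9.68 in FA+LPS cells, against 8.88, 9.32, 8.81 and 9.04 in LPS cells. There was no overlap, and FA+LPS 1 and FA+LPS 4 still lay below all Unstim arrays. The coefficient was 0.84 ± 0.13 (SE), 1.79-fold (adjusted p 0.0357 in limma), and a second probe was called at 0.77. The effect was 1.09 with LPS and 0.53 without it.

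Rims3 belongs to a family of scaffold proteins known from the release of synaptic vesicles, and it had the smallest adjusted p of all genes. Its log2 signal (ILMN_2488599) was 6.84, 7.03, 7.72 and 7.75 in FA cells, against 6.39, 6.67 and 6.92 in Unstim cells. With LPS it was 6.70, 7.26, 7.59 and 7.46 in FA+LPS cells, against 6.32, 6.51, 6.67 and 6.66 in LPS cells. FA 1 lay below Unstim 4, so the groups without LPS overlapped, while those with LPS did not. Within experiments the difference was between 0.38 and 1.05. The coefficient was 0.71 ± 0.08 (SE), 1.64-fold (adjusted p 0.0129 in limma), and the effect was 0.71 with LPS and 0.71 without it. Rims3 was called in 12 of the 15 fits that left out 1 array, against 3 to 6 for the other called genes.

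Unc119 encodes a chaperone that binds the lipid tail of acylated proteins. Its log2 signal (ILMN_2464999) was 7.16, 7.07, 7.55 and 7.13 in FA cells, against 6.73, 6.94 and 6.88 in Unstim cells. In LPS-treated cells the signal was 6.91, 7.05, 7.43 and 6.85 in FA+LPS cells, against 6.70, 6.44, 6.67 and 6.49 in LPS cells. The groups did not overlap in either condition, by a margin of less than the spread within FA+LPS. The coefficient was 0.45 ± 0.07 (SE), 1.37-fold (adjusted p 0.0278 in limma), and a second probe was called at 0.38.

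**Figure D1:**
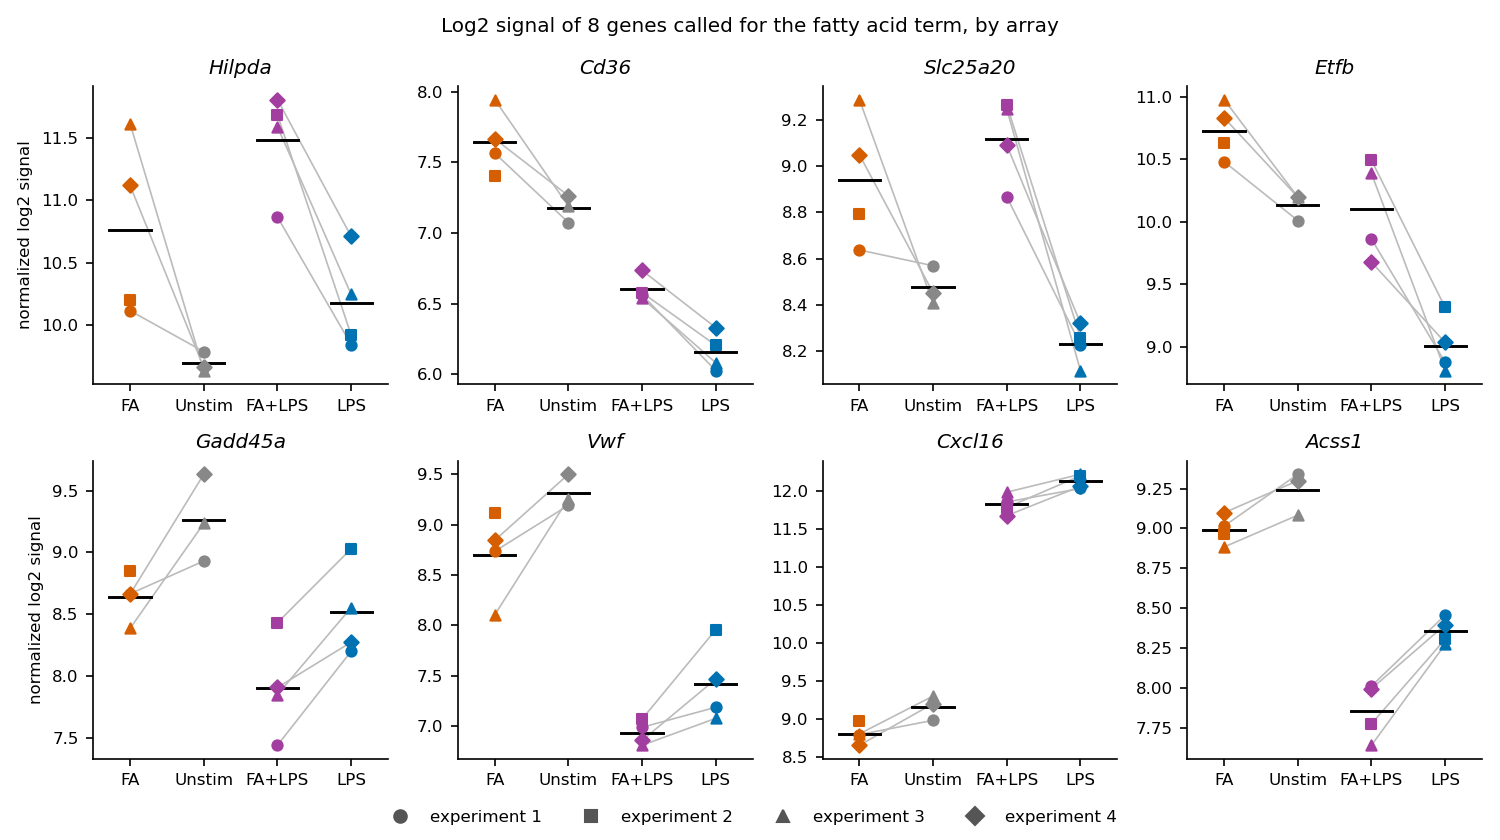
Normalized log2 signal (vertical axis, a separate scale per gene) of 8 of the 11 called genes by group, 1 point per array, with symbols for the experiment, lines joining arrays of an experiment and a bar at the group mean. Hilpda, Cd36, Slc25a20 and Etfb were higher in FA than in Unstim and in FA+LPS than in LPS, and Gadd45a, Vwf, Cxcl16 and Acss1 were lower, along every line.

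Gadd45a, induced by DNA damage and growth arrest, had the largest coefficient among genes that fell. Its log2 signal (ILMN_2742152) was 8.67, 8.85, 8.39 and 8.66 in FA cells, against 8.93, 9.24 and 9.63 in Unstim cells. Under LPS it stood at 7.44, 8.43, 7.85 and 7.91 in FA+LPS cells, against 8.20, 9.03, 8.55 and 8.27 in LPS cells. The groups without LPS did not overlap, while FA+LPS 2 lay above LPS 1 and LPS 4. The coefficient was -0.68 ± 0.10 (SE), a fall of 1.60-fold (adjusted p 0.0278 in limma). A second probe gave -0.45 and missed the threshold (0.0574).

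Vwf encodes von Willebrand factor, an adhesive glycoprotein of blood known from endothelial cells and platelets. Its log2 signal (ILMN_2519673) was 8.73, 9.11, 8.10 and 8.84 in FA cells, against 9.19, 9.26 and 9.50 in Unstim cells. In the cells given LPS it was 6.99, 7.07, 6.81 and 6.86 in FA+LPS cells, against 7.19, 7.96, 7.08 and 7.47 in LPS cells. The groups did not overlap, though FA+LPS 2 came very close to LPS 3, and FA 3 was the lowest array without LPS. The coefficient was -0.60 ± 0.10 (SE), a fall of 1.52-fold (adjusted p 0.0382 in limma). Of the 5 endothelial markers measured, Vwf was the only one called. The others were dim: Pecam1 was above background on 4 of 15 arrays, Tek on 6, Cdh5 on 8 and Kdr on 13, with coefficients between -0.04 and 0.01. The summed signal of these 4 was 252 to 273 in FA cells and 255 to 278 in Unstim cells, and 260 to 274 in FA+LPS cells and 245 to 273 in LPS cells. With Vwf included the sum was 532 to 819 in FA cells and 862 to 979 in Unstim cells, and 381 to 408 in FA+LPS cells and 391 to 519 in LPS cells, so it moved with Vwf itself.

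Cxcl16 encodes a membrane-bound chemokine that also takes up oxidised low-density lipoprotein. Its log2 signal (ILMN_2687586) was 8.79, 8.97, 8.80 and 8.65 in FA cells, against 8.98, 9.30 and 9.20 in Unstim cells. With LPS it was 11.86, 11.79, 11.99 and 11.68 in FA+LPS cells, against 12.04, 12.21, 12.23 and 12.07 in LPS cells. The groups did not overlap in either condition, and the fatty acid differences were small beside the distance between arrays with and without LPS. The coefficient was -0.34 ± 0.06 (SE), a fall of 1.26-fold (adjusted p 0.0461 in limma), and a second probe gave -0.13 and was not called (0.752).

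Acss1 is the mitochondrial acetyl-CoA synthetase, which makes acetyl-CoA from acetate. Its log2 signal (ILMN_2628174) was 9.01, 8.96, 8.88 and 9.10 in FA cells, against 9.34, 9.08 and 9.30 in Unstim cells. In LPS-treated cells the signal was 8.01, 7.77, 7.64 and 7.99 in FA+LPS cells, against 8.46, 8.31, 8.27 and 8.40 in LPS cells. FA 4 lay above Unstim 3, so the groups without LPS overlapped, and those with LPS did not. The coefficient was -0.38 ± 0.06 (SE), a fall of 1.30-fold (adjusted p 0.0278 in limma).

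Slc30a1 encodes the zinc exporter ZnT1 of the plasma membrane. Its log2 signal (ILMN_1224883) was 7.85, 7.75, 7.37 and 7.51 in FA cells, against 8.10, 7.74 and 7.87 in Unstim cells. Under LPS it stood at 7.20, 7.41, 6.63 and 7.05 in FA+LPS cells, against 7.55, 7.80, 7.61 and 7.37 in LPS cells. The groups overlapped in both conditions, and FA+LPS 3 was the lowest array by a wide margin. The coefficient was -0.44 ± 0.07 (SE), a fall of 1.36-fold (adjusted p 0.0461 in limma).

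Within each slide, with fatty acid and LPS as the only terms, all 11 genes kept their sign. Hilpda had 0.91, 1.43 and 1.70 on slides 1, 2 and 3, Cd36 had 0.54, 0.39 and 0.61, and Gadd45a had -0.48, -0.48 and -0.90. With slide and experiment both as terms, 5 genes were called, 2 of them among the 11.

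**Figure D2:**
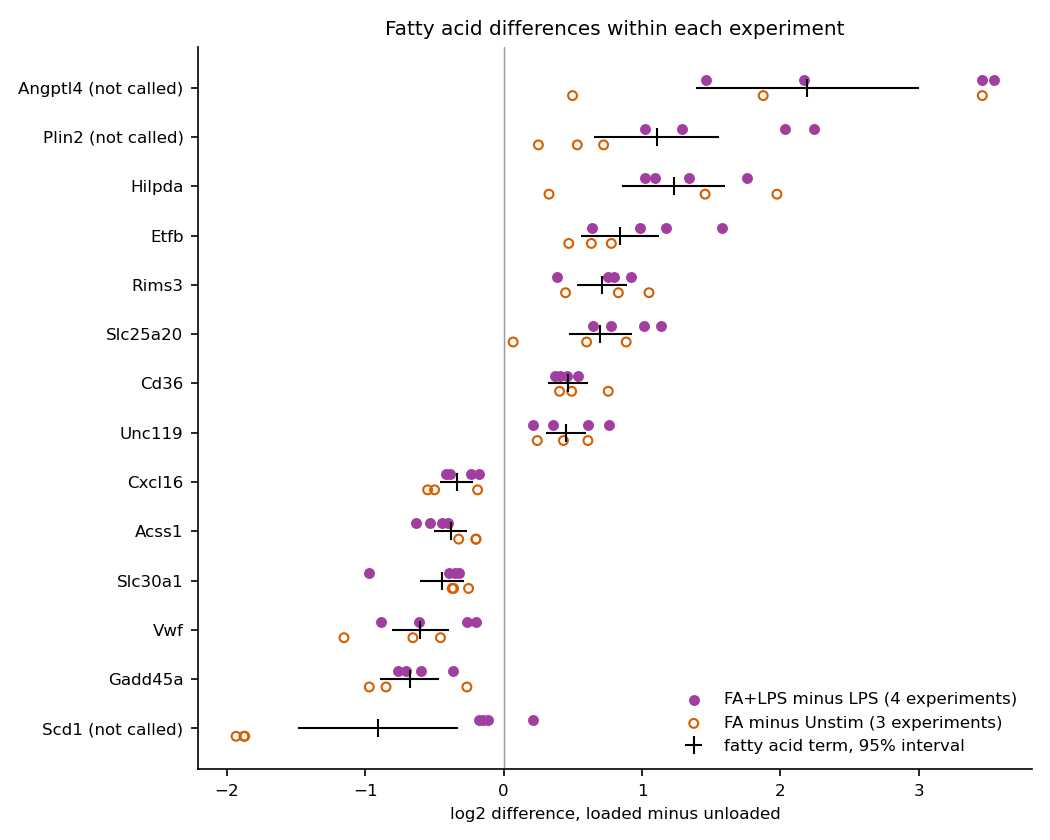
Log2 differences of loaded minus unloaded cells within each experiment (horizontal axis), filled for FA+LPS minus LPS and open for FA minus Unstim, with the fatty acid coefficient and its 95% interval in black. The 11 called genes, Angptl4 and Plin2 have all 7 points on 1 side of 0, while the open points of Scd1 lie near -1.9 and its filled points near 0.

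A step in the adjusted p-values lay at the threshold. The largest adjusted p among called genes was 0.0461, the smallest among the others was 0.0523, and 30 genes lay between 0.05 and 0.06, 20 higher and 10 lower. An adjusted p below 0.1 took in 89 genes, 56 higher and 33 lower. Genes just outside included those with the smallest adjusted p, 0.0523. Among them Angptl4, Btbd1, Kdm7a and Fcgrt (the neonatal Fc receptor) had positive coefficients of 2.19, 0.32, 0.33 and 0.42. Rpa2, a subunit of the single-stranded DNA binding protein RPA, 1110038B12Rik, Tmem114, Eps8 (an actin regulator) and Adgre5 (the adhesion receptor CD97) had coefficients of -0.27, -0.41, -0.36, -0.58 and -0.58. Other probes did not give the same value for Kdm7a (-0.08) or Rpa2 (-0.002 and 0.03).

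Angptl4, a secreted inhibitor of lipoprotein lipase and a PPAR target gene, had the largest positive coefficient of the genes named here and was not called. Its log2 signal (ILMN_2759365) was 6.90, 7.16, 9.85 and 8.09 in FA cells, against 6.40, 6.39 and 6.22 in Unstim cells. In the cells given LPS it was 7.38, 9.71, 9.59 and 8.17 in FA+LPS cells, against 5.91, 6.25, 6.04 and 6.00 in LPS cells. Loaded and unloaded arrays did not overlap, but the loaded arrays spread widely, with FA 1 the lowest, and 2 of 4 LPS arrays were not above background. The coefficient was 2.19 ± 0.37 (SE) (adjusted p 0.0523 in limma), and the effect was 2.66 with LPS and 1.63 without it. A second probe gave -0.003.

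Plin2 encodes the main coat protein of macrophage lipid droplets. Its log2 signal (ILMN_1222246) was 9.84, 10.32, 10.57 and 10.20 in FA cells, against 9.59, 9.84 and 9.67 in Unstim cells. With LPS it was 9.03, 10.39, 9.91 and 9.68 in FA+LPS cells, against 8.01, 8.15, 7.87 and 8.39 in LPS cells. With LPS the groups stood apart, while FA 1 lay just below Unstim 3. The coefficient was 1.11 ± 0.21 (SE) (adjusted p 0.0564 in limma), and the effect was 1.65 with LPS and 0.45 without it, a difference of 1.20 between the conditions (95% interval 0.63 to 1.77, adjusted p 0.103).

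The genes called for the shared coefficient can be set beside the effects in each condition, taken from a fit of 4 groups plus experiment. The difference between the effects with and without LPS was called for none of the 11 in limma. The additive term favours genes with like effects in both conditions, so this count is largely set by how the genes were chosen. The 95% interval of the difference held 0 for 8 of them, with differences such as 0.003 for Rims3 (-0.37 to 0.38) and -0.05 for Cd36 (-0.35 to 0.25). These intervals are wide and do not show equal effects. The interval lay above 0 for Slc25a20 (0.43, 0.03 to 0.82) and Etfb (0.57, 0.10 to 1.04). It lay below 0 for Acss1 (-0.27, -0.46 to -0.08). For these 3 genes the effect was 0.89 with LPS and 0.46 without it, 1.09 with LPS and 0.53 without it, and -0.50 with LPS and -0.23 without it, in that order.

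With LPS, 206 genes were called higher (1.59%) and 138 lower (1.06%) in loaded cells, 2.65% of all genes together. Median scaling left 0 and 3 of these calls, though all 344 kept their sign. Without FA+LPS 2 there were 60 and 41 calls, and leaving out any other LPS-treated array except FA+LPS 4 gave 86 to 149 higher and 55 to 88 lower. Without LPS, 0 were called higher and 3 lower (0.0231%) in limma, with 318 higher (2.45%) and 340 lower (2.62%) at an unadjusted p below 0.05. The 2 effects compare different groups of the same experiments, but they do not rest on wholly separate arrays. With no Unstim array in experiment 2, its LPS and FA+LPS arrays also entered the effect without LPS, through the experiment term. That effect is therefore not a plain mean of the FA minus Unstim differences within experiments. The coefficients of the 2 effects correlated at a Pearson r of 0.0901 over the 12984 genes, given as a description. Of the 206 genes higher with LPS, 63.6% had a positive coefficient without LPS, against 51.0% of all genes, with medians of 0.48 with LPS and 0.05 without it. Of the 138 lower with LPS, 53.6% were negative without LPS, against 49.0% of all genes, with medians of -0.62 and -0.01. All 6 genes that rose for the shared coefficient were among the 206, and 3 of the 5 that fell were among the 138.

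The genes called lower without LPS were Scd1, Ifi27l2a and Acod1, and none of them was called for the shared coefficient. Ifi27l2a and Acod1 each had an adjusted p of 0.0448 in limma, and neither was called with median scaling or with no experiment term. Scd1, the stearoyl-CoA desaturase that makes monounsaturated fatty acids, had a log2 signal of 6.64, 6.69, 6.61 and 6.60 in FA cells, against 8.52, 8.54 and 8.47 in Unstim cells. In LPS-treated cells the signal was 6.80, 6.82, 6.47 and 6.25 in FA+LPS cells, against 6.59, 6.97, 6.65 and 6.37 in LPS cells. FA arrays lay far below Unstim arrays, while all LPS-treated arrays were near the FA level and overlapped. Scd1 was above background on every array of each group, but its mean was 6.65 in LPS cells, against 8.51 in Unstim cells. Whether this lower level in LPS cells left room for Scd1 to fall further was not tested. The effect was -0.06 with LPS and -1.94 without it (adjusted p 0.921 and 1.80e-06), and the difference of 1.89 was called (95% interval 1.59 to 2.19, adjusted p 9.04e-05 in limma). With median scaling the difference was 1.95 (adjusted p 0.323), and the effect without LPS was -1.96 and still called (0.0228). Its shared coefficient of -0.91 ± 0.27 (SE) averages these (adjusted p 0.213). Scd2, a related desaturase, had effects of -0.08 with LPS and -1.08 without it, and that difference was not called (0.103).

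The difference between the conditions was called for 20 genes (0.154%), 10 higher (0.077%) and 10 lower (0.077%) with LPS than without it. With median scaling it was called for no gene in limma (smallest adjusted p 0.323, 189 higher and 92 lower at an unadjusted p below 0.05). It was called for 1 gene in each direction without FA 1, FA+LPS 2 or Unstim 4. The most negative differences were those of Edn1 (endothelin 1, -2.04 with LPS and 0.04 without it), Ddit3 (the stress transcription factor CHOP, -1.84 with LPS and 0.20 without it) and Slc28a2 (a nucleoside transporter, -1.43 with LPS and 0.17 without it). Among those with a positive difference were Cav1 (caveolin 1, 1.41 with LPS and 0.04 without it) and Hsd17b7 (an enzyme of cholesterol synthesis, 1.27 with LPS and 0.07 without it), and all 5 were chosen for the text after their values were seen. Their shared coefficients were -1.11, -0.92, -0.71, 0.80 and 0.73 in that order, and none was called. The mean log2 signal was 6.37 on loaded and 7.61 on unloaded arrays for Edn1, and 6.60 and 7.41 for Slc28a2. Whether either gene was above background without LPS is not given here, and a gene near background there has little room to fall.

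**Figure D3:**
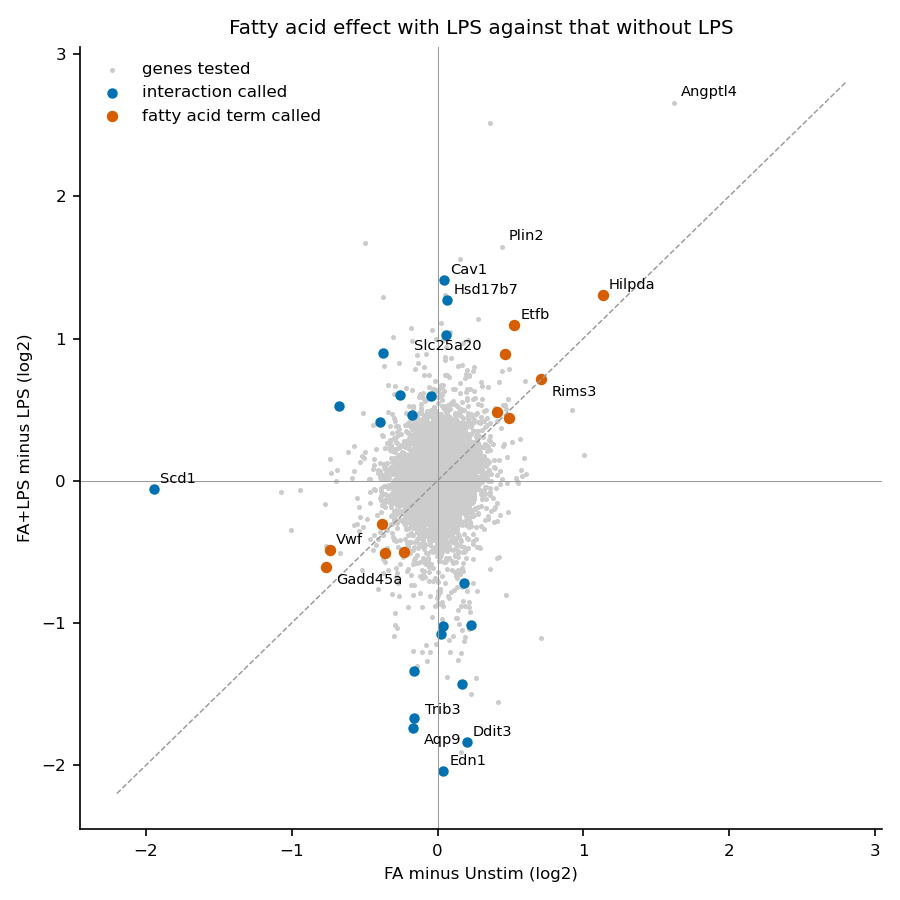
Fatty acid effect with LPS (vertical axis, FA+LPS minus LPS, log2) against the effect without LPS (horizontal axis, FA minus Unstim, log2) for 12984 genes, with the 11 genes called for the shared coefficient in orange, the 20 called for the difference in blue and equal effects on the dashed line. Each colour shows what chose its genes, since the shared term favours like effects and the blue genes were called for unlike ones. Among the orange points Etfb, Slc25a20 and Acss1 lie off the dashed line, and Scd1 lies by the horizontal axis.

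Gene lists describe the shared coefficient by pathway. Over all genes the median coefficient was 0.004 and 6801 of 12984 were positive. The list of PPAR-responsive genes had 29 measured members. Of these 3 were called higher (Hilpda, Cd36 and Slc25a20) and none lower, 14 were higher at an unadjusted p below 0.05 and none lower, and 24 had positive coefficients. Over all genes 0.0462% were called higher and 6.32% were higher at an unadjusted p below 0.05. Its median was 0.16, with 0.24 with LPS and 0.13 without it, and 9 members were called higher with LPS (1.59% of all genes) and none without. Those 9 became 0 with median scaling, 3 with no experiment term and 2 to 9 with 1 array left out (fewest without FA+LPS 2, as for the lists of oxidation and the integrated stress response). Members not called included Acaa2 (a thiolase of beta-oxidation, 0.62, adjusted p 0.126) and Pex11a (a peroxisome division protein, 0.57, 0.0883), while Cpt1a, which makes acylcarnitine, and Pdk4, which restrains pyruvate oxidation, had 0.02 and 0.11. Cpt1a was not above background on any FA+LPS array. Pdk4 was above background on only 2 FA, 1 Unstim, 3 FA+LPS and 1 LPS arrays.

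Fatty acid oxidation had 30 measured members, 2 called higher (Etfb and Slc25a20), 15 higher and none lower at an unadjusted p below 0.05, and 26 positive. The shares over all genes were again 0.0462% and 6.32%. Its median was 0.17, with 0.25 with LPS and 0.08 without it. With median scaling the median without LPS was -0.06, as was that of all genes. With LPS 8 members were called higher (1.59% of all genes), against 0 with median scaling, 4 with no experiment term and 3 to 10 with 1 array left out. The acyl-CoA dehydrogenases Acadl and Acads each had 0.38 (adjusted p 0.0523 and 0.0564) and the isomerase Eci2 had 0.44 (0.0564), just outside the threshold. The median within experiments was positive in all 7 differences, 0.24, 0.33, 0.23 and 0.18 for FA+LPS minus LPS in experiments 1 to 4 and 0.10, 0.17 and 0.10 for FA minus Unstim in experiments 1, 3 and 4. The PPAR-responsive list shares Slc25a20, Acadl, Eci2 and other members with it. The tricarboxylic acid cycle, downstream of oxidation, had 22 measured members, none called, 20 positive and a median of 0.08. At an unadjusted p below 0.05, 6 were higher (6.32% of all genes) and none lower (4.05%).

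Uptake and binding genes had 1 of 16 members called higher (Cd36), against 0.0462% of all genes, and a median of 0.13. The lipase Lpl, which frees fatty acids from lipoproteins, had 0.52 ± 0.14 (SE) (adjusted p 0.178 in limma), and a second probe gave 0.12. The binding proteins Fabp5 and Fabp4 had 0.22 (-0.09 for a second Fabp5 probe) and -0.05. Fabp4 was not above background on any FA+LPS array. Droplet coat and assembly genes had 1 of 17 called higher (Hilpda), against 0.0462% of all genes, and a median of 0.05. At an unadjusted p below 0.05, 4 were higher (6.32% of all genes) and none lower (4.05%). Of these the seipin gene Bscl2 had 0.33 (adjusted p 0.178). Triglyceride lipolysis had none of 8 called and a median of 0.13, with the lipases Lipa at 0.38, Pnpla2 at 0.19, Mgll at 0.09 and Lipe at 0.05 and the cofactor Abhd5 at 0.17. Acyl-CoA and triglyceride synthesis had none of 18 called and a median of 0.01 (-0.02 with median scaling), with Dgat1, an enzyme of the last step of triglyceride synthesis, at 0.19. Dgat2, which runs the same step, was not above background on any FA or Unstim array.

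At an unadjusted p below 0.05, fatty acid synthesis and desaturation had 1 member higher (6.32% of all genes) and 3 lower (4.05%). None of its 15 members was called, and the median was -0.02, with 0.07 with LPS and -0.09 without it. The difference between these medians was not tested. Within experiments the list median was 0.21, 0.14, -0.07 and 0.03 with LPS, against -0.11, -0.09 and -0.15 without it. Fads1, Fads2 and Elovl6, which desaturate and lengthen fatty acids, had 0.11, -0.10 and 0.003, and the regulators Srebf1 and Insig1 had -0.07 and -0.03. Fads2 was not above background on any FA array and was at least 1.16-fold lower in FA than in Unstim cells, taking the Unstim mean against the background level of the FA arrays (adjusted p 0.425 in limma). Sterol synthesis and uptake had none of 20 called for the shared coefficient and a median of 0.10, made of 0.38 with LPS and -0.13 without it. With LPS 6 members were called higher (1.59% of all genes). These calls were 0 with median scaling, 1 with no experiment term and 2 to 9 with 1 array left out (2 without FA+LPS 2 or LPS 2). Genes responsive to the liver X receptor, a sterol sensor, had none of 15 called and a median of 0.06 (-0.004 with median scaling), with the cholesterol exporters Abca1 and Abcg1 at 0.06 and -0.24. Abca1 was above background on only 1 FA, 1 Unstim and 1 LPS array, and on 4 FA+LPS arrays.

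**Figure D4:**
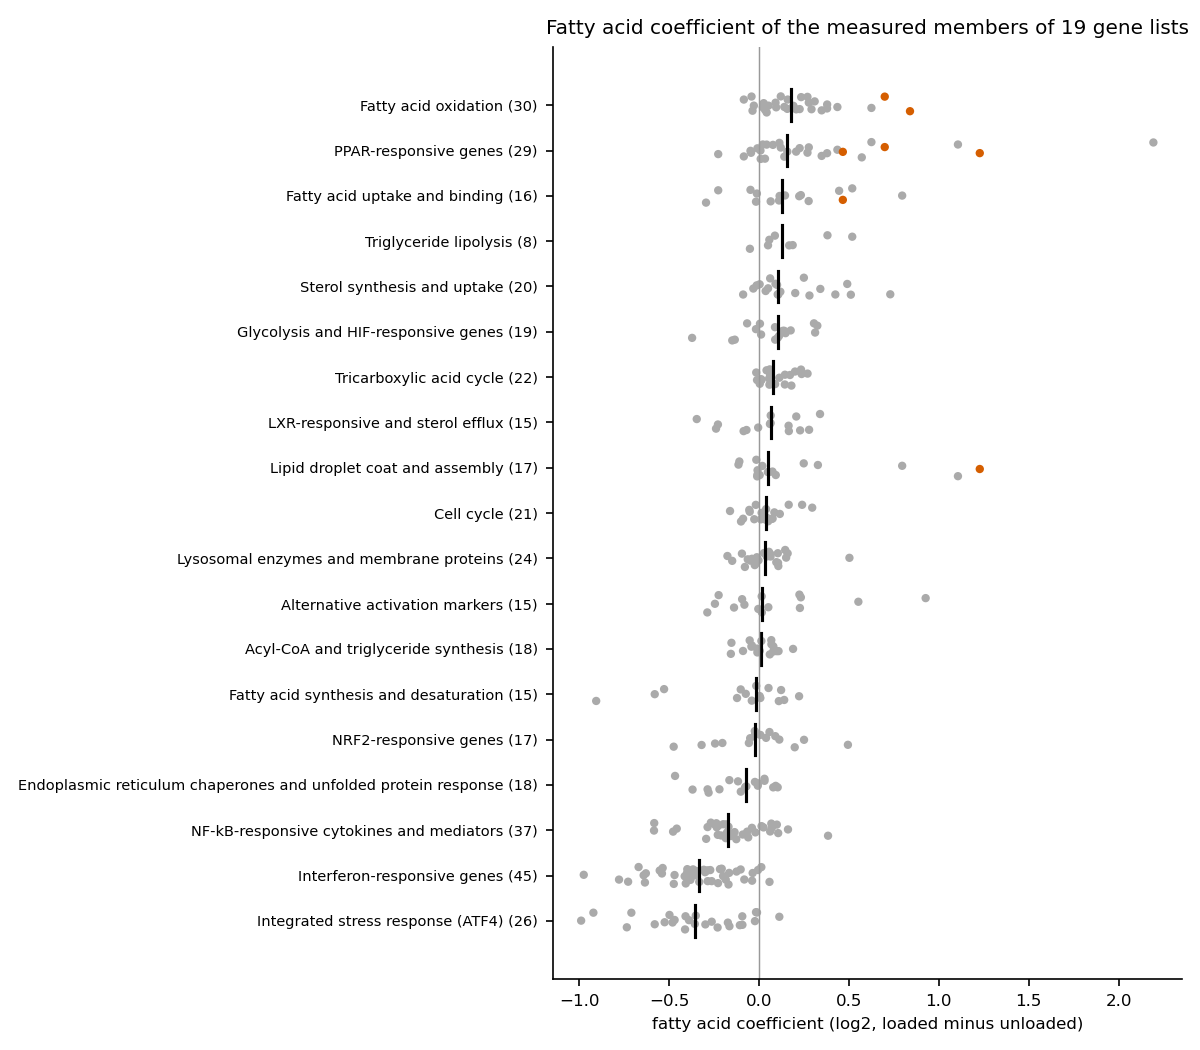
Fatty acid coefficient (horizontal axis, log2, loaded minus unloaded) of each measured member of 19 gene lists, 1 point per gene with called genes in orange and a bar at the median of the list, with the number measured in parentheses. Medians run from 0.17 for fatty acid oxidation to -0.35 for the integrated stress response, and the 2 lowest lists hold no called gene.

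The lists with the lowest medians held no gene called for the shared coefficient. The integrated stress response, genes driven by the transcription factor ATF4 when amino acids run short or proteins misfold, had 26 measured members. Of these 19 were lower at an unadjusted p below 0.05, against 4.05% of all genes, and none higher, with 1 positive and a median of -0.35. That median was made of -0.55 with LPS, where 13 members were called lower (1.06% of all genes), and -0.09 without it, where none was. None of the 13 calls remained with median scaling (median -0.54 with LPS). With no experiment term 8 members were called lower, and 7 to 13 were with 1 array left out. Wars, a tRNA synthetase, came closest at -0.48 ± 0.09 (SE) (adjusted p 0.0564). Its log2 signal was 7.91, 8.03, 7.96 and 8.22 in FA cells, against 8.12, 8.48 and 8.38 in Unstim cells. Under LPS it stood at 8.39, 7.98, 8.09 and 8.27 in FA+LPS cells, against 8.78, 8.86, 8.60 and 9.08 in LPS cells. Wars was lower within each experiment, and the groups without LPS overlapped. Trib3, a pseudokinase of this response, had a larger coefficient of -0.99 (adjusted p 0.131) but effects of -1.67 with LPS and -0.16 without it, a difference that was called (adjusted p 0.0463) but not with median scaling.

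Interferon-responsive genes had 45 measured members, none called, 20 lower (4.05% of all genes) and none higher at an unadjusted p below 0.05, 2 positive and a median of -0.33, with -0.54 with LPS and -0.02 without it. Within experiments the list median was -0.09, -0.21 and -0.07 for FA minus Unstim in experiments 1, 3 and 4. For FA+LPS minus LPS it was -0.59, -0.78, -0.41 and -0.33 in experiments 1 to 4. With no experiment term the median without LPS was -0.10, so the value of -0.02 depended on the fit. Of the 45 members, 11 were called lower with LPS (1.06% of all genes), against 0 with median scaling, 1 with no experiment term and 1 to 16 with 1 array left out (1 without FA+LPS 1, FA+LPS 2 or LPS 2). Without LPS Ifi27l2a alone was called lower (adjusted p 0.0448 in limma, and 0.0651 for the shared coefficient). It was not called with median scaling or with no experiment term. Its log2 signal was 7.24, 7.26, 7.30 and 7.71 in FA cells, against 8.17, 8.73 and 8.52 in Unstim cells. In the cells given LPS it was 9.91, 9.37, 10.09 and 10.43 in FA+LPS cells, against 10.01, 10.17, 10.53 and 10.47 in LPS cells. FA arrays lay below all Unstim arrays, and FA+LPS arrays overlapped LPS arrays. Cytokine genes responsive to NF-kB had none of 37 called. At an unadjusted p below 0.05, 1 was higher (6.32% of all genes) and 8 were lower (4.05%). The median was -0.17, with -0.15 with LPS and 0.02 without it (-0.01 with median scaling). Wars, Trib3 and Ifi27l2a were named after their values were seen.

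Among the remaining pathway lists, medians were -0.07 for endoplasmic reticulum chaperones (18 measured), -0.02 for NRF2-responsive genes (17), 0.03 for lysosomal genes (24, -0.04 with median scaling), 0.10 for glycolysis (19), 0.01 for alternative activation (15, -0.007 with median scaling) and 0.04 for the cell cycle (21), with no call for the shared coefficient in any. With LPS, 3 chaperone genes and 1 NRF2-responsive gene were called lower (1.06% of all genes). Lysosomal and cell cycle genes had 1 called higher each (1.59% of all genes). Glycolysis had 2 higher and 1 lower, and alternative activation 1 and 1. None of these calls with LPS remained with median scaling. The macrophage marker list had a median of 0.11, with 0.31 with LPS and -0.01 without it, and none of 11 was called. Its summed signal was 25856 to 28865 in FA cells and 26528 to 29011 in Unstim cells, and 22218 to 36164 in FA+LPS cells and 20104 to 27147 in LPS cells. The part of this shift in the lists that were higher with LPS was not tested. Markers of neutrophils (8 measured), B cells (4), T and NK cells (1), dendritic cells (6), eosinophils and mast cells (2), mesothelium and fibroblasts (9) and adipocytes (2) held no gene called for the shared coefficient.

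With LPS, however, 1 neutrophil marker was called higher and 1 mast cell marker lower. S100a8, a calcium-binding protein abundant in neutrophils, had a log2 signal of 8.46, 8.31, 8.38 and 8.57 in FA cells, against 8.42, 8.64 and 8.12 in Unstim cells. With LPS it was 10.90, 10.75, 10.78 and 9.94 in FA+LPS cells, against 9.18, 9.59, 9.93 and 9.24 in LPS cells. FA+LPS arrays lay above LPS arrays throughout, and the effect was 1.11 with LPS and 0.02 without it (adjusted p 0.00565 with LPS in limma, 0.901 with median scaling). The summed signal of the 8 neutrophil markers was 1549 to 2443 in FA+LPS cells and 1104 to 1499 in LPS cells, and 813 to 886 in FA cells and 782 to 891 in Unstim cells. Without S100a8 it was 484 to 567 in FA+LPS cells and 502 to 544 in LPS cells, and 479 to 505 in FA cells and 491 to 526 in Unstim cells. The neutrophil genes Mpo and Cxcr2 were each above background on 4 of 15 arrays. Kit, the stem cell factor receptor of mast cells, had effects of -0.88 with LPS and -0.02 without it (adjusted p 0.0423 with LPS in limma, 0.675 with median scaling), and the list median was -0.25 over 2 genes. Kit was above background on 7 of 15 arrays, and at most 1 of the 2 genes was above background on any FA or Unstim array. The single T and NK cell gene measured had -0.14. The part of these shifts in the lists that moved with LPS was not tested.

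**Figure D5:**
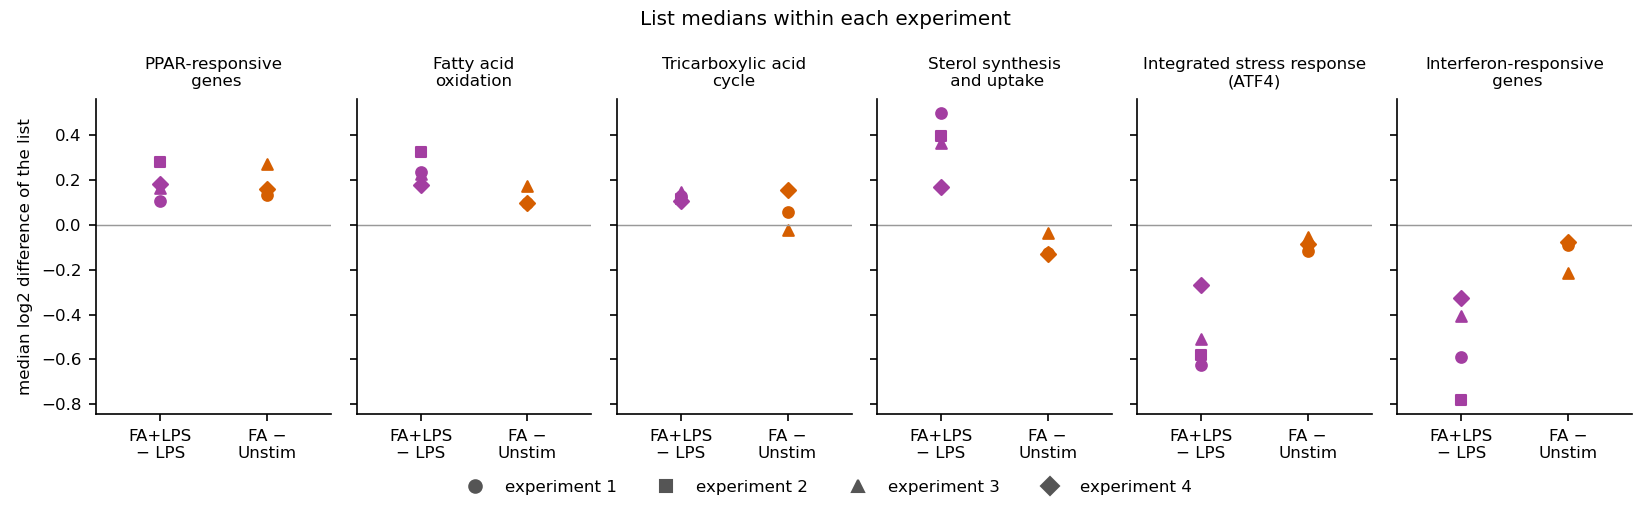
Median log2 difference of the measured members of 6 gene lists within each experiment (vertical axis), with FA+LPS minus LPS on the left and FA minus Unstim on the right of each panel and symbols for the experiment. The PPAR-responsive and fatty acid oxidation medians are positive in all 7 differences, sterol synthesis changes sign between the conditions, and the integrated stress response and interferon medians lie further below 0 with LPS.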

How the data were processed

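Biotin-labelled cRNA of cultured mouse peritoneal macrophages was hybridised to Illumina arrays in 1 colour, per the labels. The authors deposited log2 signals of 45281 probes that were not normalized between arrays, and a value table of 25784 retained probes that equals a quantile normalization of them to within 0.000949. Not given in the sources used here were software, genome build and background treatment before deposit. No detection p-values were used.

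Signals were back-transformed, corrected with normexp (offset 50), quantile normalized over all probes and returned to log2. A probe was above background where it exceeded the 95th percentile of the 19497 probes not retained, on that array. Retained probes above background on at least 3 arrays were tested, and the brightest stood for each of 12984 genes. Names came from the platform annotation, where 21476 retained probes had 1 symbol, 10 had several and 4298 had none.

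The fatty acid term was fitted with limma 3.58.1 in R 4.3.3 (lmFit, eBayes) on all 15 arrays with LPS and experiment, leaving 9 residual and 4.10 prior degrees of freedom. A second fit of 4 groups plus experiment gave the effects with and without LPS and their difference. Tests were 2-sided, with Benjamini-Hochberg adjustment over all genes, and a gene was called below 0.05. Precision is limited by the number of arrays. The fits were tested on simulated data. Experiment numbers in the titles pair the arrays. Deviations from the group means correlated at 0.560 to 0.805 for FA+LPS and LPS, and at 0.0552 to 0.258 for FA and Unstim. Each FA+LPS and LPS pair shared a slide, so these correlations cannot tell experiment from slide. FA 4 and Unstim 4 lay on slides 1 and 3 and had the value of 0.0552, so their difference also spans slides. Correlations of arrays that were not paired are not given here. The text names called genes with 1 sign in all 7 within-experiment differences, called list members, a set of 30 lipid genes (26 measured) and the genes with the smallest adjusted p that were not called. The members and the gene lists were chosen with earlier results of these data known. Alternatives covered experiment and slide terms, scaling, background, probe filters, priors, array weights and each array left out. Promoter windows came from RefSeq. Windows of Cxcl16, Vwf and Angptl4 were not used here.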

Additional observations from a re-analysis of the deposited data

Results flagged for a closer look

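The difference of the Scd1 effects with and without LPS, 1.89 on the log2 scale, stood out because the 2 conditions differed by a test of the difference itself. The FA minus Unstim difference of Scd1 was -1.88, -1.93 and -1.87 in experiments 1, 3 and 4. The FA+LPS minus LPS difference was 0.21, -0.15, -0.18 and -0.11 in experiments 1 to 4. Scd1 was already low in LPS cells (mean 6.65, against 8.51 in Unstim cells), and the room for a further fall was not tested.

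Single arrays stood far from the others of their group in 4 of 132 groups of 4 arrays, where chance gives about 1 in 20. For Adgre5 the array of FA experiment 3 had a log2 signal of 10.02, against 10.72 to 10.81 on the other FA arrays, a gap of 0.884 of the range. For Dgat1 the array of FA experiment 1 had 6.89, against 6.42 to 6.50 (0.834 of the range). For Abcg1 the array of LPS experiment 3 had 6.32, against 7.15 to 7.29 (0.856). For Pdk4 the array of LPS experiment 4 had 5.75, against 6.01 to 6.04 (0.895), and only 1 LPS array was above background for this gene. None of these 4 genes was called for the shared coefficient.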

How the results depend on the processing

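The shared coefficient called 6 genes higher and 5 lower. The 11 called genes kept their sign in every alternative that gave them a value. Counts of higher and lower calls were 0 and 0 with no replicate block, 16 and 9 with experiment as a random replicate block, 11 and 2 with slide as a block, and 3 and 2 with slide and experiment both as terms. They were 0 and 0 within slide 1 and within slide 2, 10 and 1 within slide 3, and 0 and 0 without experiment 2 or with median scaling. With cyclic loess they were 6 and 4. They were 16 and 10 without background correction and in the authors' value table, 16 and 20 with a normexp offset of 16, and 28 and 26 for genes above background on all arrays. They were 13 and 8 for each probe on its own, 15 and 20 with an intensity trend and robust prior, and 165 and 90 with array weights. The mean of the effects with and without LPS, each weighing the same, called 60 and 45, all 11 genes among them. An adjusted p below 0.1, chosen after seeing the data, gave 56 and 33. Leaving out 1 array gave 0 to 46 higher and 0 to 19 lower.

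For the effect without LPS, calls were 0 higher and 3 lower, with 1 lower under no replicate block or median scaling and 1 to 3 lower with 1 array left out. For the effect with LPS, calls were 49 and 40 with no replicate block and 0 and 3 with median scaling, and 60 to 234 higher and 41 to 169 lower with 1 array left out. The difference between the effects was called for 4 and 2 genes with no replicate block, for 0 and 0 with median scaling (189 and 92 at an unadjusted p below 0.05 in limma) and for 20 and 25 with slide and experiment as terms, a setting chosen after seeing the data. Leaving out 1 array gave 1 to 32 and 1 to 27. The cause of these changes was not tested.

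With median scaling the median standard error was 0.0924, against 0.0627, and the list medians of acyl-CoA and triglyceride synthesis and of lysosomal genes were -0.019 and -0.041. The list counts and medians with and without LPS under median scaling, with no replicate block and with 1 array left out were alternatives chosen after seeing the data.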
